A study of Mus musculus with 6 samples.

Results

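The respiratory chain of liver mitochondria was examined at the level of its nuclear-encoded mRNAs. Members were taken by array name: every probe whose gene name begins with Nduf, is Sdha, Sdhb, Sdhc or Sdhd, or begins with Uqcr, with Cox and a digit, or with Atp5, with the brightest probe standing for each gene. The rule found 87 of the 27962 gene names on the array, held by 120 of its 41174 probes, with 37 genes of complex I, 4 of complex II, 7 of complex III, 23 of complex IV and 16 of complex V. Of the 87, 86 stood well above background in each of 12 readings (6 arrays with 2 channels), and Cox8c, the testis isoform of subunit 8 of cytochrome c oxidase, did so in 3. Male 129/Sv mice that were 6 to 8 weeks old at the start received a liquid diet with 4% ethanol, or an isocaloric diet with maltose dextran, for 1, 2 or 4 months. At each month liver RNA of 6 mice per group was pooled, and the alcohol-treated pool was hybridized against the control pool on 2 two-color arrays with the dyes Cy5 and Cy3 exchanged. Since both hybridizations of a month used identical RNA, they were treated as 1 replicate, and the spread from mouse to mouse was not measured. All values are log2 ratios of alcohol over control unless another scale is named, and a monthly average is the mean of the 2 arrays of a month with the SD between them.

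Oxidative phosphorylation joins 5 complexes of the inner mitochondrial membrane. Complex I accepts electrons from NADH and complex II from succinate. Both pass them to ubiquinone, complex III hands them on to cytochrome c, and complex IV delivers them to oxygen. Complexes I, III and IV pump protons, and complex V, the ATP synthase, lets the protons return and makes ATP. Hepatocytes are rich in mitochondria, and oxidation of ethanol and acetaldehyde delivers NADH, which complex I reoxidizes. Most subunits are encoded in the nucleus, where NRF1, the ETS factor GABP and ERR-alpha with the coactivator PGC-1 are known regulators of their transcription. The rule by name also admitted genes that are no liver subunits: 8 assembly factors, 6 isoforms typical of other tissues, and Cox4nb, now called Emc8, which lies beside the Cox4 gene and belongs to a complex of the endoplasmic reticulum. Ndufa4 keeps its complex I name here, although its protein is now placed in complex IV. In a liver pool, fewer cells of a type and less RNA per cell cannot be told apart.

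Between 73.3% and 90.3% of the spots of a channel were well above background, and 0 of the readings of the member probes were saturated. The 2 arrays of a month did not give the same picture. Which pool carried which dye was taken from the labels, and every monthly average and dye part rests on it. Across the 27898 probes well above background in every reading, the ratios of the 2 arrays had a Pearson's r of 0.16 in the first month, -0.30 after 2 and -0.32 after 4 months (a description across genes, which are not replicates and share their arrays). Across the 86 members the same correlations were -0.16, -0.41 and -0.53. A part of a ratio that follows the dye turns its sign between the arrays of a pair. It cancels in the monthly average only where its size is the same on both arrays, which was not tested. This dye part, the deviation of the Cy5 array from the monthly average, had an r of 0.90 between 2 and 4 months over the members and 0.88 over all probes. The 1-month arrays were on a slide and scan of their own, so the slide cannot be told apart from the contrast between 1 month and the later months.

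For the members the dye part ran mostly one way. At 2 months the median ratio was -0.32 with alcohol in Cy5 and 0.02 with alcohol in Cy3. At 4 months the medians were -0.36 and 0.26. At 1 month they were 0.00 and 0.04, and medians over all probes well above background lay between -0.02 and 0.01 on all 6 arrays. The array with alcohol in Cy5 gave the lower ratio for 54 of 86 members at 1 month, 73 at 2 months and 76 at 4 months, or 62.8%, 84.9% and 88.4%, against 52.2%, 55.4% and 53.3% of all probes. At 4 months 69 of the 86 members (80.2%) stood on opposite sides of 0 on the 2 arrays, against 69.9% of all probes, and at 2 months 49 (57.0%) against 65.5%. Among the 86 the widest pairs belonged to Cox4i2, the lung isoform of subunit 4, with a 2-month pair of 0.76 and -0.68 and a 4-month pair of 0.62 and -0.89, which leaves averages of 0.04 and -0.13. The further results therefore rest on both arrays of a month.

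**Figure D1:**
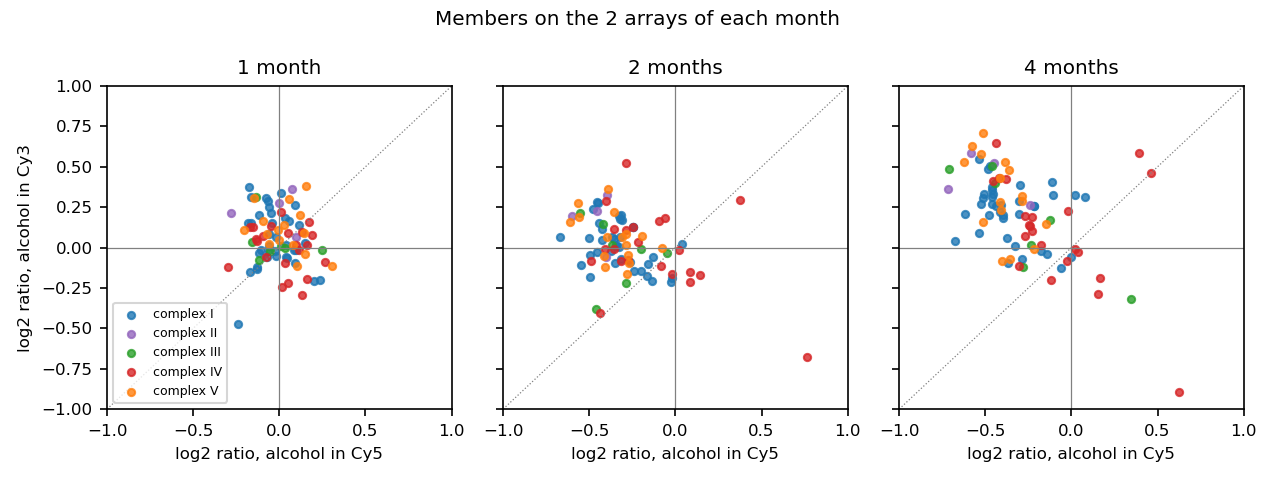
Log2 alcohol over control of the 86 members well above background on the array with alcohol in Cy5 (horizontal axis) against the array with alcohol in Cy3 (vertical axis), 1 panel per month, colored by complex, with a dotted diagonal of equal values. At 2 and 4 months most members lie left of 0, and at 4 months 69 of 86 (80.2%, against 69.9% of all probes) lie in quadrants where the arrays differ in sign.

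**Figure D2:**
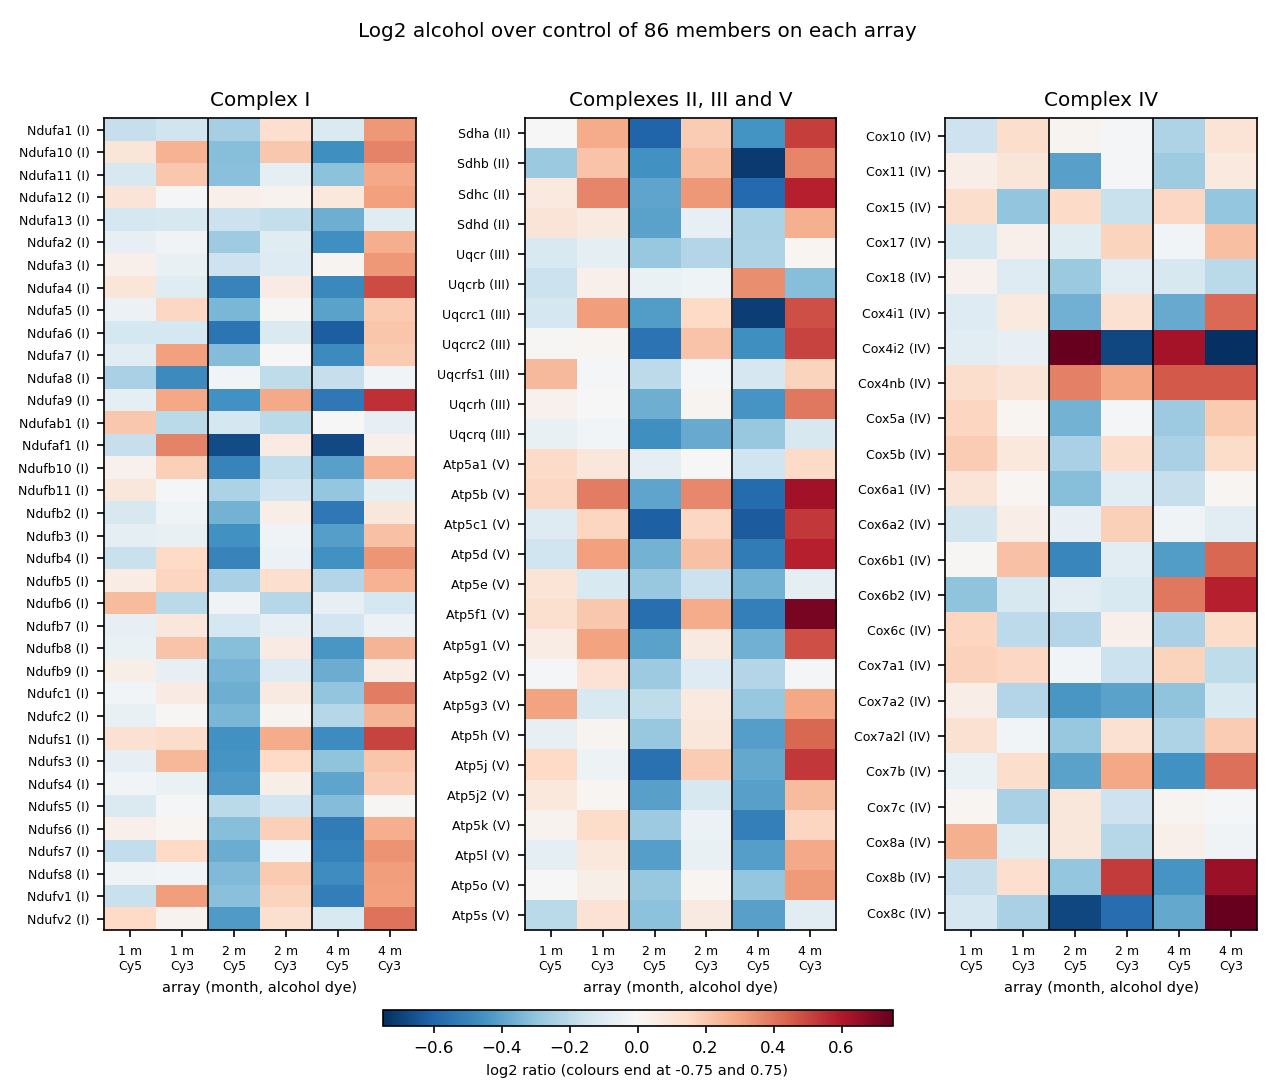
Log2 alcohol over control of 86 of the 87 members on the 6 arrays, as colors that end at -0.75 and 0.75, with the complex in parentheses and columns named by month and the dye of the alcohol pool. Most rows change color within the 2- and 4-month pairs, while Cox4nb is above 0 and Ndufa13, Ndufa8 and Uqcrq below 0 in all 6 columns.

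Across the 3 months no member differed from 0 after adjustment. The mean of the 3 monthly averages was tested with limma, and 0 of 87 members had a Benjamini-Hochberg adjusted p below 0.05, where 0 of 37922 probes did (0%). The lowest adjusted p of a member was 0.616, that of Cox4nb. At an unadjusted p below 0.05, limma gave 1 member above 0, Cox4nb, where 3.72% of all probes were so called, and 3 below 0, Ndufa6, Ndufa13 and Cox7a2, where 4.23% were. The members' shares were 1.15% and 3.45%. The count of 3 was 7 of 86 (8.14%) with only probes well above background tested, against 5.83% of all probes. It was 5 (5.75%) with normexp (4.68% of all probes) and without the 1-month pair (6.53%). It was 0 without 2-month replicate 1 (2.6% of all probes), 2-month replicate 2 (2.85%) or the 2-month pair (2.48%). Leaving out 4-month replicate 1 (alcohol in Cy5) also gave 0 (1.66%). The count was 1 (1.15%) without the 4-month pair (2.7%), with the slide as a block (3.85%) or without moderation (3.12%). Cox4nb was no longer called without the 2- or 4-month pair, with the mean of its probes or without moderation. The SE of a member's mean was 0.07 in the median and between 0.06 and 0.20. Ratios of all 6 arrays were below 0 for 3 members, Ndufa13, Ndufa8 and Uqcrq (background 2.42%), and above 0 for 1, Cox4nb (1.72%).

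Ndufa13, also known as GRIM-19, is an accessory subunit of complex I. Its first-month arrays read -0.13 and -0.12, those of 2 months -0.16 and -0.18, and those of 4 months -0.37 and -0.09, each pair with alcohol first in Cy5 and then in Cy3. All 6 values were below 0, and the arrays of a pair nearly coincided at 1 and 2 months. The mean over the months was -0.18 (SE 0.06, n = 3 months, limma adjusted p = 0.625), or 0.886 of control.

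Ndufa8, another accessory subunit of complex I, was lowest at 1 month. Its ratios were -0.24 and -0.47 there, against -0.02 and -0.19 after 2 months and -0.17 and -0.02 after 4. The 1-month average of -0.36 ± 0.16 (SD of 2 arrays), or 0.780 of control, was the lowest of the 87 members at that month. Over the months the mean was -0.19 (SE 0.08, limma adjusted p = 0.632).

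Uqcrq is a small accessory subunit of complex III. It stood at -0.06 and -0.02 in the first month, with -0.46 and -0.38 after 2 months, then -0.28 and -0.12 after 4. Both 2-month arrays were past 1.2-fold, and the average of -0.42 ± 0.06 corresponds to 0.747 of control. The mean of the months was -0.22 (SE 0.09, limma adjusted p = 0.630).

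Cox7a2, the liver-type isoform of subunit 7a of complex IV, had nearly the same course. The 3 pairs, in order of time, were 0.05 and -0.22, -0.43 and -0.40, and -0.30 and -0.11. Only the first of them was above 0. The 2-month average was -0.42 ± 0.02 (0.748 of control) and the mean of the months -0.24 (SE 0.09, limma adjusted p = 0.625). A second probe of the gene gave averages of -0.08, -0.23 and -0.21 at 1, 2 and 4 months, against -0.08, -0.42 and -0.21 for the first.

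Ndufa6, an accessory subunit of complex I of the LYR protein family, read -0.13 on both arrays of the first pair, -0.55 and -0.11 in the 2-month pair, and -0.62 and 0.21 in the 4-month pair. Its mean of -0.22 (SE 0.07, limma adjusted p = 0.619) had the lowest unadjusted p of the subunits. The 4-month pair differed in sign, so this average is smaller than its SD between arrays of 0.58.

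Cox4nb was the member furthest above 0. Its first pair was 0.13 and 0.10, its 2-month pair 0.38 and 0.29, and both 4-month arrays gave 0.46. All 6 values were above 0 with little spread between dyes, and the 4-month average of 0.46 corresponds to 1.38-fold. The limma mean was 0.30 (SE 0.09, limma adjusted p = 0.616). A second, dimmer probe of the gene, well above background in 9 of 12 readings, gave -0.07, 0.09 and -0.02, so the result rests on 1 probe. As Emc8 it is no part of the respiratory chain.

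**Figure D3:**
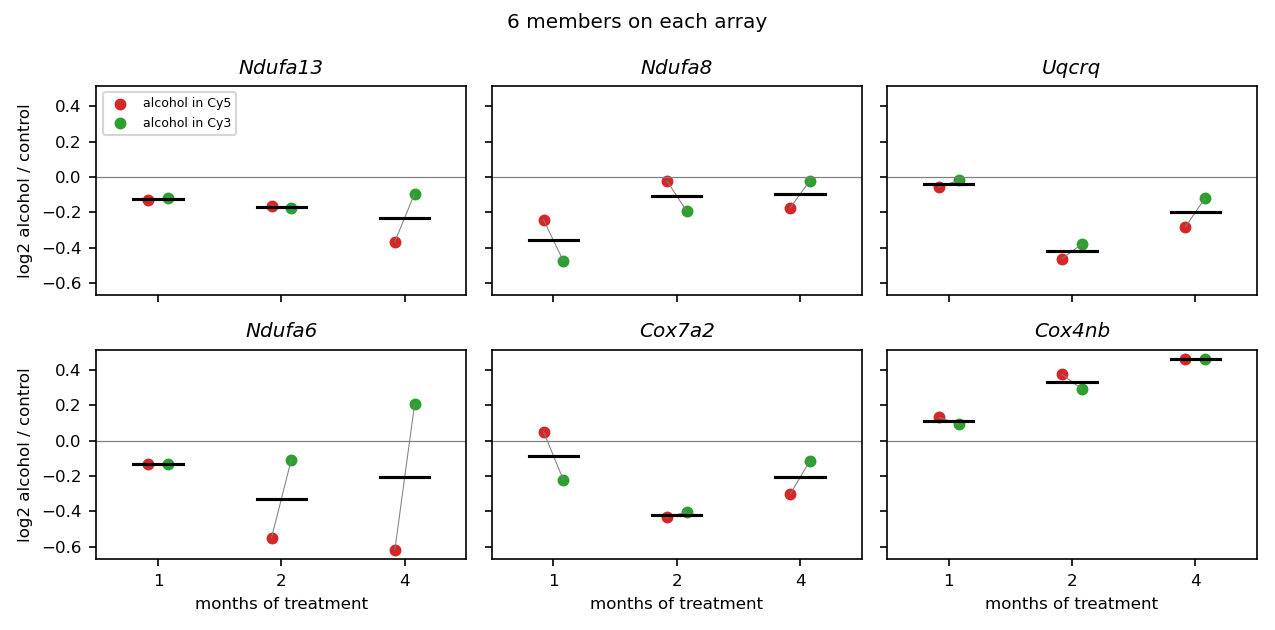
Log2 alcohol over control of 6 members against months of treatment, with the array that had alcohol in Cy5 in red, the array with alcohol in Cy3 in green and the monthly average as a black bar. The red and green points of Ndufa13, Ndufa8, Uqcrq and Cox4nb stay on 1 side of 0 at every month, while those of Ndufa6 at 4 months lie at -0.62 and 0.21.

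The promoters of 4 of these genes are shown because these members stood lowest or on 1 side of 0. The promoter table of RefSeq (GRCm38.p6) held 70 of the 87 members; Uqcrq and Emc8 are not among them. Each run gives the 200 bases before the start of the gene, on the strand of the gene, and capitals mark matches to 4 short motifs on either strand: the NRF1 core GCGCANGC, the ETS motif CCGGAAG, the YY1 motif AAGATGGC and the ERR motif TCAAGGTCA. All 4 genes lie on the minus strand: Ndufa8 with chr2:36049339-36049538, Ndufa13 with chr8:69902021-69902220, Ndufa6 with chr15:82354292-82354491 and Cox7a2 with chr9:79759854-79760053.
Ndufa8: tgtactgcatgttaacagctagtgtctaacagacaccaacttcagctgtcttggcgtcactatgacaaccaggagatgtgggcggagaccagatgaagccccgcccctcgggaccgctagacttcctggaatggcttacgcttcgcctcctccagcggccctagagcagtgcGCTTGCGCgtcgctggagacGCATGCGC
Ndufa13: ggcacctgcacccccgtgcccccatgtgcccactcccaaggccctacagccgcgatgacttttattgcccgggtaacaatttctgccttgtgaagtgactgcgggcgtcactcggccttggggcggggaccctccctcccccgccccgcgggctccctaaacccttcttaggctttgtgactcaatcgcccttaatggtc
Ndufa6: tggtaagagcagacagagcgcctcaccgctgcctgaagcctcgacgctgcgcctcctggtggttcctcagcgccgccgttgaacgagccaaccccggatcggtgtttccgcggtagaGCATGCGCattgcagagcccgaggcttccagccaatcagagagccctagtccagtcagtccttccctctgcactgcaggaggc
Cox7a2: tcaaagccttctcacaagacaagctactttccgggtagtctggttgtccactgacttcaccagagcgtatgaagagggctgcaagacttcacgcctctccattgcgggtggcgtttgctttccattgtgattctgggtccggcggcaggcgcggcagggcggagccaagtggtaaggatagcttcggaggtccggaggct
The Ndufa8 run held 2 matches to the NRF1 core, beginning 28 and 8 bases before the start, and the Ndufa6 run held 1, beginning 83 bases before it. The runs of Ndufa13 and Cox7a2 held none of the 4 letter strings. Over the whole window of 250 bases before to 50 after the start, the NRF1 core was in promoters of 24 of 70 members (34.3%) against 11.2% of 27025 genes, the ETS motif in 19 (27.1%) against 9.93%, the YY1 motif in 11 (15.7%) against 3.19% and the ERR motif in 2 (2.86%) against 0.466%. At least 1 of the 4 was in 43 of the 70 members (61.4%), against 21.5% of all genes. Among 69 genes of mitochondrial ribosomal proteins the NRF1 core was in 31.9%, the ETS motif in 37.7%, the YY1 motif in 17.4% and the ERR motif in 0%. The NRF1, ETS and YY1 motifs were thus not particular to the respiratory chain. A match is a run of letters and not a site shown to be bound.

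At 2 months nearly the whole chain read slightly lower in the alcohol-treated pool. Monthly averages were below 0 for 79 of the 86 members well above background (91.9%), where 46.8% of the 27898 probes were. Among the 72 structural subunits 71 were, with Ndufa12, at 0.03, as the only one above 0. The size was small, with a median of -0.14, or -0.15 among the structural subunits, and 0.01 over all probes. At 1 month 36 of the 86 members were below 0 and at 4 months 54, with medians of 0.03 and -0.05 and with 50.7% and 53.1% of all probes below 0. The lean was seen on 1 array of the pair, with the medians of -0.32 and 0.02 given above, whose SD of 0.24 exceeds the average. Both arrays were below 0 for 35 of the 86 members at 2 months (17.6% of all probes) and both above for 2.

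Few members were past 1.2-fold on both arrays of a month, which was a rule of size and not a test. At 1 month 0 of 87 were past it upward (background 2.06%) and 0 downward (2.3%). At 2 months 1 was called raised, Cox4nb (2.49%), and 3 lowered, Uqcrq, Cox7a2 and the dim Cox8c (3.5%). At 4 months 2 were called raised, Cox4nb and Cox6b2 (3.2%), and 0 lowered (3.31%). The members' shares ran from 0% to 3.45% and none was above that of the whole array. No member well above background reached 1.5-fold in the average of any month. On the 4 arrays of 2 and 4 months together, 11 members (12.6%) were below 0 on all 4, against 7.75% of all probes, and 2 were above (5.51%). Those below were Ndufa13, Ndufa8, Ndufab1, Ndufb11, Ndufb6, Ndufb7, Uqcrq, Cox18, Cox7a2, Atp5e and Atp5g2. Those above were Ndufa12 and Cox4nb.

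In complex I the 7 core subunits, which pass electrons from NADH through flavin and iron-sulfur clusters to ubiquinone, had medians of 0.09, -0.12 and -0.05 at 1, 2 and 4 months. The 28 accessory subunits had 0.01, -0.16 and -0.09. Ndufv1, which binds NADH, averaged 0.07 ± 0.34, -0.07 ± 0.34 and -0.10 ± 0.58. Ndufs1, the large iron-sulfur subunit, averaged 0.13 ± 0.02, -0.09 ± 0.52 and 0.02 ± 0.69. Averages of Ndufs3, Ndufs7, Ndufs8 and Ndufv2 lay between -0.20 and 0.15. At 2 and 4 months the SD between the arrays exceeded the average for each of these genes. The highest mean over the months belonged to Ndufa12 (0.09, SE 0.07, limma adjusted p = 0.756) and then Ndufv2 (0.03). The accessory subunit Ndufb10 had the lowest 2-month average of complex I, -0.34 ± 0.22, after 0.11 ± 0.10 at 1 month.

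Complex II, succinate dehydrogenase, is also an enzyme of the TCA cycle. Its 4 subunits had medians of 0.11, -0.16 and 0.01 at the 3 months, the first beside array medians of 0.03 and 0.25. Sdhc, a membrane anchor, read 0.07 and 0.37 at 1 month, an average of 0.22 ± 0.21, and then -0.04 and 0.00. The catalytic flavoprotein Sdha averaged 0.14 ± 0.20, -0.20 ± 0.56 and 0.04 ± 0.68. The iron-sulfur subunit Sdhb averaged -0.03, -0.11 and -0.18, with 4-month arrays of -0.72 and 0.36. The second anchor Sdhd was at 0.10 and 0.07 at 1 month and at -0.40 and -0.06 at 2 months. The dye part of complex II was the widest of the 5, with medians of -0.35 at 2 months and -0.51 at 4 months.

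In complex III the medians of the 7 subunits were 0.01, -0.17 and -0.02, and all 7 averaged below 0 at 2 months. Next to Uqcrq, the lowest was Uqcr, now Uqcr11, with -0.10 ± 0.03, -0.25 ± 0.05 and -0.11 ± 0.17 and a mean of -0.15 (SE 0.07, limma adjusted p = 0.637). Of its 6 arrays 5 were below 0, the last at 0.01. The Rieske iron-sulfur protein Uqcrfs1 averaged 0.12, -0.10 and 0.02, and the core proteins Uqcrc1 and Uqcrc2 between -0.17 and 0.09. Uqcrb was the one subunit of complex III whose dye part ran the other way at 4 months, with 0.35 and -0.32.

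In complex IV the 10 structural subunits had medians of 0.05, -0.11 and -0.03, and all 10 averaged below 0 at 2 months. Of all 23 genes of complex IV 17 did, and 6 were above 0. Cox4i1, the general isoform of subunit 4, averaged -0.01, -0.12 and 0.02, Cox5a 0.09, -0.18 and -0.04, and Cox5b 0.14, -0.06 and -0.05. The liver-type isoforms Cox6a1 and Cox8a averaged 0.06, -0.20 and -0.08 and 0.09, -0.07 and 0.01. None of the tissue-restricted isoforms had an unadjusted limma p below 0.05 for the mean of the months. Cox6a2, Cox7a1 and Cox8b, which belong to heart and muscle, averaged between -0.09 and 0.16, and Cox4i2 between -0.13 and 0.04.

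Cox6b2, the testis isoform of subunit 6b, had the widest range of monthly averages among the 86 members well above background. Its pairs were -0.30 and -0.12 in the first month, -0.08 and -0.11 after 2 months, then 0.39 and 0.58 after 4. The first 4 values were below 0 and the last 2 above. The slope on the log2 of the month was 0.35 (SE 0.10, limma adjusted p = 0.691), the only trend among the 87 members at an unadjusted p below 0.05, against 7.12% of all probes. By Benjamini-Hochberg adjustment 0 members had a trend. The signal of its probe also differed between months in both pools. On the log2 scale relative to the upper quartile of each channel, the control pools were at -1.93 at 1 month, 1.59 at 2 months and 1.47 at 4 months, and the alcohol-treated pools at -2.14, 1.49 and 1.96. That is a difference of 3.52 between the 1- and 2-month control pools, while the other members well above background moved by -2.45 to 1.33. Between these months 0.663% of all probes well above background differed by more than 3 in the control pools. Month, slide and scan cannot be told apart in it, and within the later slide the alcohol pool differed by 0.47 from 2 to 4 months.

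Complex V had medians of 0.05, -0.15 and 0.00 over its 16 genes, all of which averaged below 0 at 2 months. Atp5b, the beta subunit with the catalytic sites, averaged 0.27 ± 0.16 at 1 month (0.15 and 0.38), the highest of the members there, and -0.02 ± 0.53 and 0.03 ± 0.85 later. The alpha subunit Atp5a1 averaged 0.12 ± 0.04, -0.04 ± 0.05 and 0.00 ± 0.21. The central stalk subunits Atp5c1 and Atp5d averaged between -0.23 and 0.08, and Atp5o, the OSCP of the peripheral stalk, between -0.13 and 0.02. Atp5e, the epsilon subunit, was at 0.10 and -0.11, at -0.28 and -0.16 and at -0.35 and -0.07, with a mean of -0.15 (SE 0.07, limma adjusted p = 0.662). Atp5f1, subunit b of the peripheral stalk, averaged 0.16, -0.15 and 0.10.

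**Figure D4:**
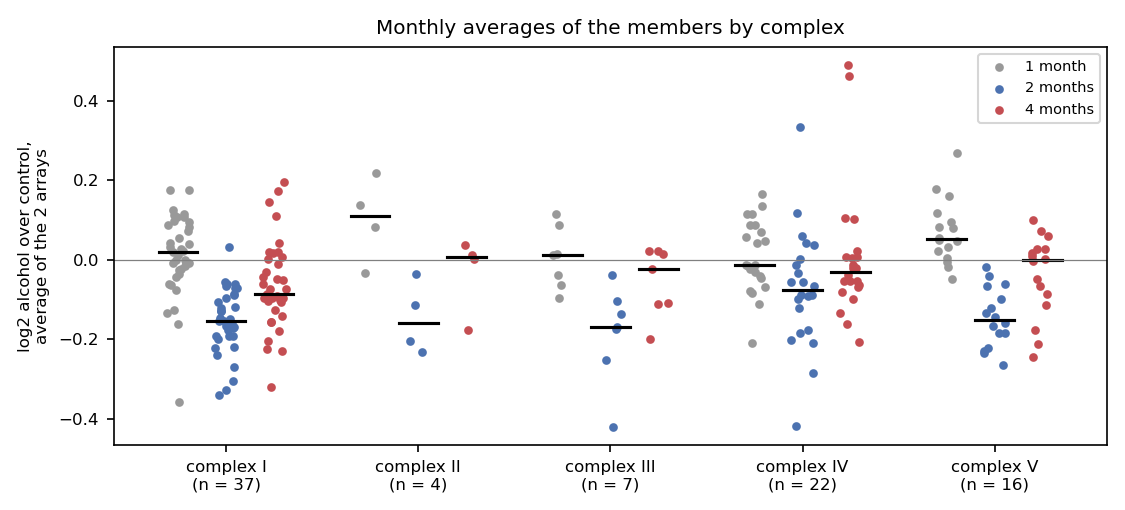
Monthly averages of log2 alcohol over control for the 86 members well above background, by complex, with 1 point per gene and the median as a black bar, at 1 month (gray), 2 months (blue) and 4 months (red). The 2-month points lie below 0 for every gene of complexes II, III and V and for 36 of 37 of complex I. In complex IV 6 genes lie above 0 at 2 months. Of all probes well above background 46.8% were below 0 at that month.

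The 8 assembly factors had medians of -0.02, -0.10 and -0.08. Atp5s, now Dmac2l, read -0.41 and -0.08 at 4 months, and Cox18, which helps insert a mitochondrially encoded subunit, averaged -0.03, -0.18 and -0.16. Ndufaf1, a complex I assembly factor, had averages of 0.10 ± 0.39, -0.30 ± 0.52 and -0.32 ± 0.51, where the Cy5 arrays read -0.67 and -0.68 and the Cy3 arrays 0.06 and 0.04. Cox10 and Cox15, which make the heme of the oxidase, averaged between -0.08 and 0.00. The copper handling factors Cox11 and Cox17 averaged 0.07, -0.21 and -0.10 and -0.05, 0.04 and 0.10, and the supercomplex factor Cox7a2l between -0.09 and 0.05.

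Other probes of the same genes gave partly other ratios. Of the 87 genes, 27 had more than 1 probe, and 22 had more than 1 well above background on every array. Within these 22 the widest monthly gap between probes of a gene had a median of 0.14 and reached 0.36. In 5 genes the probes had opposite signs at 2 or more months. Cox5a averaged 0.09, -0.18 and -0.04 by its brighter and -0.03, 0.07 and 0.20 by its dimmer probe. Ndufs4, an accessory subunit, averaged -0.04, -0.19 and -0.11 by one and -0.10, 0.07 and 0.20 by the other. For Atp5f1 the 3 probes gave 0.10, 0.03 and -0.26 at 4 months. Ndufa3 averaged -0.01, -0.13 and 0.17 or 0.13, 0.04 and 0.00, and Ndufa1 -0.16, -0.06 and 0.11 or -0.14, 0.03 and -0.06.

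The surroundings of the chain gave the same 2-month lean in part. Of 75 mitochondrial ribosomal protein genes 63 averaged below 0 at 2 months (median -0.11), and of 80 cytosolic ribosomal protein genes 75 did (median -0.15). Their medians on the 2-month array with alcohol in Cy5 were -0.24 and -0.33. At 1 month the ribosomal sets parted, with -0.01 and -0.18. Another 15 genes that now carry respiratory chain names but stand under older names on the array had medians of -0.02, -0.14 and -0.09, and 14 of them averaged below 0 at 2 months. The mitochondrially encoded subunits were not analysed here.

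**Figure D5:**
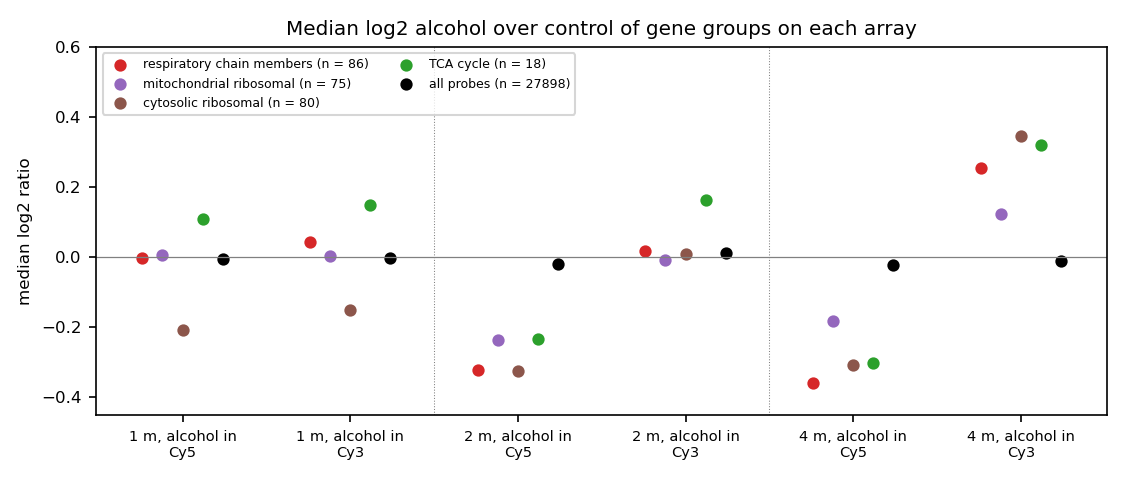
Median log2 alcohol over control of 4 gene groups and of all probes well above background on each array, named by month (m) and dye of the alcohol pool. At 2 and 4 months the 4 gene groups lie below 0 with alcohol in Cy5, at -0.18 to -0.36, and all probes stay near 0 on every array.

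The partners of the chain were listed apart. Among 19 genes of electron carriers, ubiquinone synthesis and ATP export, 0 had an adjusted p below 0.05 by limma, and 1 had an unadjusted p below 0.05, above 0, where 3.72% of all probes did. That gene was Etfdh, which feeds electrons from fatty acid oxidation into ubiquinone, with averages of 0.32, 0.17 and 0.13 (limma adjusted p = 0.624). Cytochrome c, Cycs, averaged -0.11, -0.06 and 0.00. Cytochrome c1, Cyc1, itself a subunit of complex III outside the name rule, averaged 0.13, -0.13 and -0.04. In the TCA cycle list 2 of 18 genes had an unadjusted limma p below 0.05, both above 0 (background 3.72%), and 0 an adjusted one. Idh2, the mitochondrial NADP-dependent isocitrate dehydrogenase, read above 0 on all 6 arrays, with 0.79 and 0.79, 0.15 and 0.48, and 0.58 and 0.86 (mean 0.61, SE 0.11, limma adjusted p = 0.616). Idh3a, of the NAD-dependent enzyme, averaged 0.24, 0.16 and 0.13 (limma adjusted p = 0.624). Of 14 regulators of mitochondrial biogenesis 0 had an unadjusted p below 0.05: Ppargc1a, which encodes PGC-1-alpha, averaged 0.16, -0.11 and 0.11, Nrf1 0.01, 0.17 and -0.10, Gabpa -0.06, 0.11 and 0.04, Esrra 0.07, -0.08 and -0.13, and Tfam, the mitochondrial transcription factor, -0.05, 0.05 and 0.05. Past 1.2-fold on both arrays, 1 of the 14 regulators was lowered at 2 months (3.5% of all probes) and 1 at 4 months (3.31%). Neither call fell on a regulator named here, and 0 were raised. Of 13 import and folding genes, 9 antioxidant and uncoupling genes and 12 assembly factors outside the rule, 0 had an unadjusted p below 0.05. By the same 1.2-fold rule 1 import and folding gene was lowered at 2 months (3.5%). In the antioxidant and uncoupling list 1 gene was raised at 1 month (2.06%).

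Markers of other cells differed between the months. The 7 pancreas acinar genes on the array had medians of -0.06, 0.02 and 0.66, with 4 of 7 past 1.2-fold upward on both arrays at 4 months (background 3.2%), and their summed signal ran from 16922 to 60156 in the alcohol-treated and from 17504 to 45331 in the control pools. The 4 erythroid genes had medians of 0.84, -0.13 and 0.58 (0.00 and 0.91 on the 4-month arrays), led by hemoglobin at 1 month, where Hbb-b1 averaged 1.97 and Hba-a1 1.51, and Alas2, of erythroid heme synthesis, read -1.05 and -0.46 in its 2-month pair and -2.28 and -1.73 in its 4-month pair. The 8 hepatocyte markers, all well above background in every reading, had medians of 0.05, -0.12 and -0.03, beside array medians of 0.42 and -0.43 at 2 months and 0.94 and -0.56 at 4 months, opposite in order to those of the members. Medians of the Kupffer, stellate, endothelial, cholangiocyte, lymphocyte, striated muscle, brown fat (with the members Cox7a1 and Cox8b) and neutrophil lists lay between -0.14 and 0.36 at the 3 months. At 1 month all 4 endothelial markers averaged above 0, from 0.21 to 0.59, as did all 6 Kupffer markers, from 0.01 to 1.23. For the mean of the months 2 endothelial markers were above 0 at an unadjusted limma p below 0.05 (3.72% of all probes). Averages of single hepatocyte markers lay between -0.75 and 0.69. Of the muscle markers Mb was well above background in no reading and Myl1 in 1. The part of any of these in the members' ratios was not tested.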

How the data were processed

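Liver RNA pools of alcohol-treated and control mice were compared on 6 two-color arrays, 2 per month with exchanged dyes. The authors deposited the scanner output of Feature Extraction 9.1.1.1: the signal intensity of each spot and channel, background-corrected and dye-normalized, with raw mean and background intensities, and a log10 ratio with Cy5 in the numerator. The deposited value table of the series, also a log10 ratio, was used as an alternative. It already ran as alcohol over control on every array, was centered on a median of 0 and, for 99.5% of probes on each array, differed from the scanner's ratio by at most 0.02 on the log2 scale. Column p-values of single spots in the deposited files were not used.

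The log2 ratio of alcohol over control was taken from the processed signals, 1639 control spots were left out of the 45018, spots of a probe were averaged, and then the 2 arrays of a month. Tests used limma 3.58.1 (R 4.3.3) on the 3 monthly averages against 0, and on the log2 of the month for the trend, over the 37922 probes well above background in at least 1 reading, with Benjamini-Hochberg adjustment at 0.05. These were tested on simulated data. A member was called raised or lowered at 1.2-fold on both arrays of a month. The alternatives were normexp (offset 50) with loess, the deposited ratios, centering, filters on dim probes, probe means, left-out arrays and months, the slide as a block, another time scale, other thresholds and an unmoderated test. Named genes were the 2 highest and 2 lowest members of each complex, the largest at each month, those called at 2 or more months, the redox and catalytic subunits, isoforms and assembly factors, genes whose probes disagreed, and 7 carriers and regulators. Members, lists and this rule were chosen with earlier results of these data known. For 1 of the 87 members no individual value is reported here. RefSeq accessions matched 84 of the 87 members. Array number limits the precision, and pooled RNA gives no spread between mice.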

Additional observations from a re-analysis of the deposited data

Results flagged for a closer look

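Among the 86 members well above background and 7 named carriers and regulators, 13 genes had both arrays of one month on one side of 0 and both of another month on the other side. The share of all probes with such a pattern was not counted, so this number is no result about the members. The differences below are between monthly averages on the log2 scale, and they were not tested, since each month has 1 pair of pools. Cox6b2 was higher at 4 months than at 1 month by 0.70 and than at 2 months by 0.59. From 1 to 2 months the average differed by -0.45 in Ndufb10, -0.40 in Cox6b1, -0.31 in Sdhd, -0.31 in Atp5j2, -0.28 in the copper factor Cox11, -0.27 in Cox5a, -0.26 in Cox6a1, -0.25 in Cox7a1, -0.24 in Atp5k and -0.16 in Atp5a1. These 10 comparisons, and that of Cox6b2 from 1 to 4 months, run between the slides, so slide and month cannot be told apart. From 2 to 4 months, within 1 slide, the average differed by 0.30 in Ndufa3 and by -0.27 in the regulator Nrf1. The second probe of Ndufa3 averaged 0.04 at 2 and -0.0002 at 4 months and did not show this difference. Nor did that of Cox5a, with -0.03 at 1 and 0.07 at 2 months. The second probe of Atp5a1, with 0.17 and -0.07, went the same way as the first.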

How the results depend on the processing

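The adjusted count of 0 members with an effect held under all 19 alternatives, and that of 0 members with a trend under all 14. Over all probes the adjusted count of the effect was 0, and it was 9 with normexp and loess, 6 with only probes well above background everywhere, and 0 to 4 with an array left out. Leaving out 4-month replicate 1 gave 518 probes with an adjusted trend, leaving out 2-month replicate 2 gave 1 and normexp 50, with 0 members in each. The unadjusted count of 3 members below 0 ran from 0 to 5 with arrays or months left out. It was 0 without 2-month replicate 1 (2.6% of all probes), 2-month replicate 2 (2.85%), the 2-month pair (2.48%) or 4-month replicate 1 (1.66%). Without the 4-month pair it was 1 (1.15%, against 2.7%), and without the 1-month pair 5 (5.75%, against 6.53%). It was 7 (8.14%, against 5.83% of all probes) with only probes well above background, 5 (5.75% against 4.68%) with normexp, and 1 (1.15%) with the slide as a block (3.85%) or without moderation (3.12%). The 1 above 0, Cox4nb, was lost (0) without the 2- or 4-month pair, with the mean of its probes and without moderation. Among the 6 members described one by one, the sign of the mean held in all 18 fits each. For the 1.2-fold rule on both arrays, the 2-month raised call went to 0 with normexp, and with the mean over all probes of a gene to 0 at 2 months raised, 1 at 4 months raised and 1 at 4 months lowered. At 1.5-fold all counts were 0. With 1.2-fold on the average alone, they were 1 and 1 at 1 month (raised, lowered), 9 lowered at 2 months (10.3%, against 10.6% of all probes) and 1 lowered at 4 months, and every share of members was below that of all probes. Among structural subunits alone, also chosen after seeing the data, 0 were raised at 2 and 0 at 4 months. One direction on all 6 arrays was held by 0 above 0 with probe means, and 1 direction on the 4 later arrays, an alternative chosen after seeing the data, by 2 above and 11 below. At 1 month the medians of all 5 complexes moved with an array left out, to -0.050 to 0.013 for complex I, 0.034 to 0.25 for II, -0.057 to -0.0013 for III, 0.017 to 0.034 for IV and 0.041 to 0.097 for V, and that of complex IV to 0.050 for structural subunits alone. The sign of later medians depended on the array: over the 87 members the 2-month median of -0.15 ran from -0.32 to 0.016 and the 4-month median of -0.049 from -0.36 to 0.26 with 1 array left out. The medians of complexes I, II and V differed in sign between the arrays at 2 months and those of all 5 complexes at 4 months. Each ratio already sets the alcohol-treated against the control pool of a month on 1 array. No paired analysis was possible beyond that, because replicate numbers only name the 2 arrays of a month and tie no pools of different months.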
